A study of Drosophila melanogaster with 9 samples.

Results

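The wing pouch of male wandering larvae of the last instar was compared between flies carrying the hairpin transgene CR32027-IR1 and OreR, across every gene that was expressed well enough to be tested. A gene was taken when its mean was at least 1 RPKM (reads per kilobase of gene, scaled to the reads of the library) over the 6 libraries of these 2 genotypes, of 9 in the series, which left 7427 of 15682 genes in the deposited table. Just outside that limit, 71 genes had means from 0.9 RPKM up to 1 RPKM, and just inside it 65 genes had means from 1 RPKM up to 1.1 RPKM.

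For both genotypes the mothers were w1118, Bx-GAL4 [MS1096]; UAS-dicer2 (Bloomington 25706), so driver and Dicer-2 transgene were shared and only the fathers differed. Fathers of the CR32027-IR1 larvae carried a UAS inverted repeat against the noncoding gene CR32027 (VDRC 26860), and fathers of the OreR larvae were wild-type OreR. Bx-GAL4 [MS1096] is a driver expressed in the wing pouch, so any hairpin would be made there and not in the whole disc. Larvae were reared at 25 °C and low density, the notum was cut away from 30 wing discs, and total RNA was made into stranded TruSeq mRNA libraries. Each genotype had 3 libraries, and since no label ties them to separate crosses, p-values rest on the spread between libraries, which may be technical. The 2 paternal stocks differ in origin and in transgene at once, and these cannot be told apart. In these bulk samples, fewer cells of a type and less RNA per cell cannot be told apart either.

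The wing imaginal disc is an epithelial sac that grows by cell division through the larval stages and forms the adult wing blade from its pouch. In the Gal4/UAS system a tissue-specific driver turns on a transgene placed behind UAS sequences, and a transcribed inverted repeat folds into double-stranded RNA that Dicer-2 cuts into the small interfering RNAs of the RNA interference pathway. Growing disc cells are rich in transcripts for protein synthesis, and wandering larvae start to show cuticle and tracheal matrix genes as metamorphosis approaches.

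The targeted gene was not lower in the libraries that carry the hairpin label. CR32027 had 4.46, 3.34 and 2.93 RPKM in the libraries labelled CR32027-IR1, against 2.38, 3.30 and 2.53 RPKM in OreR. The 2 sets overlapped, and the mean was higher in the libraries labelled CR32027-IR1, with 3.57 ± 0.793 RPKM in the libraries labelled CR32027-IR1 and 2.74 ± 0.495 RPKM in OreR (SD, n = 3 each) (limma, log2 change 0.29 ± 0.15, adjusted p = 0.274, and p = 0.2 in an exact two-sided permutation test of the RPKM values, for which 3 against 3 libraries allow no less than 0.1). A direction given here is therefore one of the libraries labelled CR32027-IR1 relative to OreR. The reads behind the RPKM values came to 30020187 to 32520573 in libraries labelled CR32027-IR1 and to 25435056 to 34333231 in OreR libraries. Libraries of one genotype correlated across tested genes at Pearson r of 0.982 to 0.995, and libraries of different genotypes at 0.977 to 0.986, on log2(RPKM + 1). Of 7 wing pouch markers 6 were measured, and their summed level was 46.1 to 50.7 RPKM in the libraries labelled CR32027-IR1, against 51.9 to 54.6 RPKM in OreR, with nub called lower. Markers of adult muscle precursors summed to 0.996 to 1.29 RPKM in libraries labelled CR32027-IR1 and 1.02 to 1.20 RPKM in OreR. None of those genes was tested. Hinge and notum had 10 markers, of which tup and pnr were under 0.1 RPKM in all 6 libraries. The remaining 8 were tested and none was called. All 10 summed to 80.2 to 97.9 RPKM in libraries labelled CR32027-IR1 and 73.9 to 86.5 RPKM in OreR. The neural and glial genes nSyb and repo were under 0.1 RPKM in all 6 libraries. Fat body markers, none of which was tested, summed to 0.682 to 2.71 RPKM in libraries labelled CR32027-IR1 and 0.118 to 0.622 RPKM in OreR.

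A single library stood apart. CR32027-IR1 replicate 2 had 375 RPKM of Hsp68, a heat-inducible Hsp70 relative, against 28.2 and 20.7 RPKM in replicates 1 and 3 and 10.2, 30.9 and 21.3 RPKM in OreR. Hsp22, a small heat shock protein gene, had 24.3, 150.05 and 11.4 RPKM in the libraries labelled CR32027-IR1, against 2.98, 13.7 and 28.1 RPKM in OreR. Markers of hemocytes, the larval blood cells, summed to 1.60 RPKM in that library, against up to 11.9 RPKM in the other libraries labelled CR32027-IR1 and 6.08 to 12.2 RPKM in OreR. For called genes below, the loss of a call without this library is given.

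Of the 7427 genes tested, 609 (8.20%) differed between the genotypes in limma at a Benjamini-Hochberg adjusted p under 0.05, and such genes are referred to as called. Of these 238 (3.20%) were higher and 371 (5.0%) lower in the libraries labelled CR32027-IR1. The 3 values of one genotype lay entirely above or below the 3 of the other for 2291 genes (30.8%), among them all 609. Most called differences were small. Log2 changes are those of RPKM + 1, a scale that compresses the changes of weakly expressed genes. By that measure 409 of the 609 were under 0.5 in size, the median size was 0.41, and 39 reached 1, of which 17 were higher and 22 lower. Over all tested genes the median log2 change was 0.01 and 54.0% of genes were above 0.

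The number of calls depended on single libraries. The count was 151 with CR32027-IR1 replicate 1 left out, 154 with OreR replicate 2 left out, 243 with OreR replicate 1 left out and 261 with OreR replicate 3 left out. Leaving out CR32027-IR1 replicate 3 gave 534 calls, and leaving out CR32027-IR1 replicate 2, the library with high Hsp68, gave 864, of which 437 were higher and 427 lower. Across these fits 116 genes (1.56% of those tested) stayed called whichever library was left out, 34 of them higher and 82 lower, and 29 of the 39 changes of at least 1 were among them. No called gene changed its direction in any of these fits. Below, a gene that loses its call in one of them is named with the library and the adjusted p without it.

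**Figure D1:**
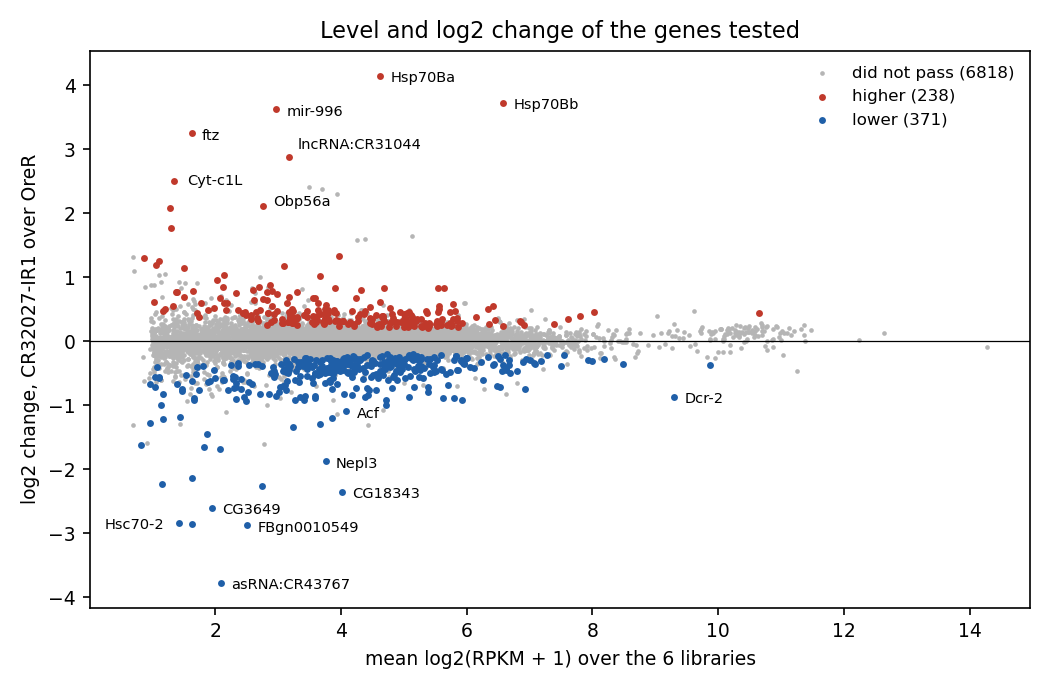
Each point is 1 of the 7427 tested genes, with its mean log2(RPKM + 1) over the 6 libraries on the x axis and its log2 change, CR32027-IR1 over OreR, on the y axis; red points are the 238 genes called higher, blue points the 371 called lower and grey points the genes that did not pass. Most called genes lie within 0.5 of 0. Apart from Dcr-2, the named genes lie far from the rest at low and middle levels. Dcr-2 lies at a high level, with a log2 change of -0.88.

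The largest rises included copies of Hsp70, the embryonic gene ftz, a stretch of chromosome arm 3R described further on, and cuticle genes. Hsp70Ba and Hsp70Bb encode the heat-inducible chaperone Hsp70 from near-identical copies, so that reads may be split among them. Hsp70Bb had 312, 431 and 312 RPKM in the libraries labelled CR32027-IR1, against 24.2, 27.4 and 24.8 RPKM in OreR. All 3 libraries labelled CR32027-IR1 were far above OreR, with a log2 change of 3.72 ± 0.13 (limma, adjusted p = 8.36e-06). Hsp70Ba had 78.4, 169 and 81.2 RPKM in the libraries labelled CR32027-IR1, against 3.61, 5.47 and 5.75 RPKM in OreR, again without overlap (limma, log2 change 4.14 ± 0.30, adjusted p = 0.000494). In the other copies CR32027-IR1 replicate 2 was far above every other library. Hsp70Bc had 10.8, 154 and 13.6 RPKM in the libraries labelled CR32027-IR1, against 2.08, 6.44 and 7.14 RPKM in OreR, and Hsp70Bbb had 8.96, 130 and 12.4 RPKM in the libraries labelled CR32027-IR1, against 1.91, 4.72 and 6.01 RPKM in OreR. In both, all libraries labelled CR32027-IR1 lay above OreR, but neither passed (limma, adjusted p = 0.163 and 0.15). Without CR32027-IR1 replicate 2 the log2 changes were 1.20 for Hsp70Bc and 1.24 for Hsp70Bbb (limma, adjusted p = 0.0791 and 0.0508). Hsp70Aa had 39.9, 286 and 36.97 RPKM in the libraries labelled CR32027-IR1, against 38.9, 68.2 and 45.6 RPKM in OreR, which overlapped, and Hsp70Ab had close to the same values (limma, adjusted p = 0.661 and 0.662). The log2 change of Hsp70Aa was 0.60 with all libraries and -0.36 without CR32027-IR1 replicate 2. The calls of Hsp70Ba and Hsp70Bb held without that library.

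The pair-rule gene ftz, which patterns the segments of the early embryo, had 9.16, 8.48 and 7.89 RPKM in libraries labelled CR32027-IR1 and is listed at 0 in all OreR libraries, 1505 reads in the 3 libraries labelled CR32027-IR1 together and 0 in the 3 OreR libraries (limma, adjusted p = 3.42e-06). Obp56a, an odorant-binding protein gene, was at 575% of its OreR mean (limma, log2 change 2.12 ± 0.13, adjusted p = 0.000238). Cuticle proteins bind chitin in the exoskeleton. The cuticle gene Cpr49Ag had 3.01, 6.01 and 3.39 RPKM in the libraries labelled CR32027-IR1, against 0.0563, 0 and 0.542 RPKM in OreR, with all libraries labelled CR32027-IR1 above OreR (limma, log2 change 2.08 ± 0.25, adjusted p = 0.00586). CG6654 was at 271% of its OreR mean (limma, log2 change 1.34 ± 0.08, adjusted p = 0.000271) and CG5039 at 249% (limma, log2 change 1.18 ± 0.15, adjusted p = 0.00716). His2B:CG17949, a histone H2B gene with near-identical copies in the histone repeat, had 2.06, 2.04 and 2.38 RPKM in the libraries labelled CR32027-IR1, against 0.443, 0.177 and 0.563 RPKM in OreR (limma, log2 change 1.19 ± 0.13, adjusted p = 0.00471). The remaining large rises were CG42500 (log2 change 1.77 ± 0.27), the cuticle gene Cpr67Fa2 (1.25 ± 0.25) and SkpB (1.14 ± 0.25), a relative of the ubiquitin ligase subunit Skp1. Hsp70Ba, Hsp70Bb, ftz, Obp56a, Cpr49Ag, CG6654, CG5039 and His2B:CG17949 stayed called whichever library was left out. CG42500 lost the call when OreR replicate 2 was left out (limma, adjusted p = 0.0502). Cpr67Fa2 lost the call when CR32027-IR1 replicate 1 or 3 or any 1 OreR library was left out (limma, adjusted p = 0.0548 to 0.0948). SkpB lost the call when CR32027-IR1 replicate 1 or 3 or OreR replicate 2 or 3 was left out (limma, adjusted p = 0.0833 to 0.136).

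Among the largest falls were several genes that were nearly silent in the libraries labelled CR32027-IR1. The antisense RNA gene CR43767 (asRNA:CR43767) had 0.126, 0.128 and 0.197 RPKM in the libraries labelled CR32027-IR1, against 15.98, 14.1 and 14.2 RPKM in OreR, the largest fall among called genes (limma, log2 change -3.77 ± 0.08, adjusted p = 1.55e-06). The sources used here do not give the strand setting of the counting, and reads of an antisense gene and its partner may be mixed. Klp54D, a kinesin-like gene, had 1 read in the 3 libraries labelled CR32027-IR1 together and 1119 in the 3 OreR libraries, where OreR values were 2.30, 2.23 and 1.75 RPKM (limma, adjusted p = 0.000457). CG14868 was at 2.12% of its OreR mean, CG3649 at 6.56% and CG18343 at 17.1% (limma, adjusted p = 1.07e-05, 7.18e-06 and 0.000137). In each of these 5 genes the OreR libraries all lay above those labelled CR32027-IR1.

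FBgn0010549, the gene of an ABC transporter, had 1.07, 0.879 and 1.34 RPKM in the libraries labelled CR32027-IR1, against 12.4, 27.5 and 8.48 RPKM in OreR. OreR libraries varied widely but did not overlap with the other genotype (limma, log2 change -2.88 ± 0.35, adjusted p = 0.00626). Nepl3, a neprilysin-like peptidase gene, had 5.91, 5.28 and 7.08 RPKM in the libraries labelled CR32027-IR1, against 24.4, 26.2 and 24.3 RPKM in OreR (limma, log2 change -1.88 ± 0.10, adjusted p = 9.98e-05). Tsp68C, a tetraspanin gene, was at 24.0% of its OreR mean (limma, log2 change -1.44 ± 0.12, adjusted p = 0.00136), and CG5618 at 34.97% (limma, log2 change -1.34 ± 0.10, adjusted p = 0.00065). The noncoding gene CR32368 (lncRNA:CR32368) fell to 8.91% of its OreR mean, on 19 reads against 199. The calls of further genes with large falls depended on which libraries were fitted. These were snoRNA:Me28S-G1083a (log2 change -2.27 ± 0.37), CR43087 (-1.65 ± 0.24) and FBgn0261362 (-1.68 ± 0.38), which the annotation does not name. In each, all libraries labelled CR32027-IR1 lay below OreR. asRNA:CR43767, Klp54D, CG14868, CG3649, CG18343, FBgn0010549, Nepl3, Tsp68C, CG5618 and lncRNA:CR32368 stayed called whichever library was left out. snoRNA:Me28S-G1083a lost the call when OreR replicate 1 or 2 was left out (limma, adjusted p = 0.0574 to 0.0587). CR43087 lost the call when CR32027-IR1 replicate 1 was left out (limma, adjusted p = 0.0518). FBgn0261362 lost the call when CR32027-IR1 replicate 1 or any 1 OreR library was left out (limma, adjusted p = 0.0531 to 0.135).

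**Figure D2:**
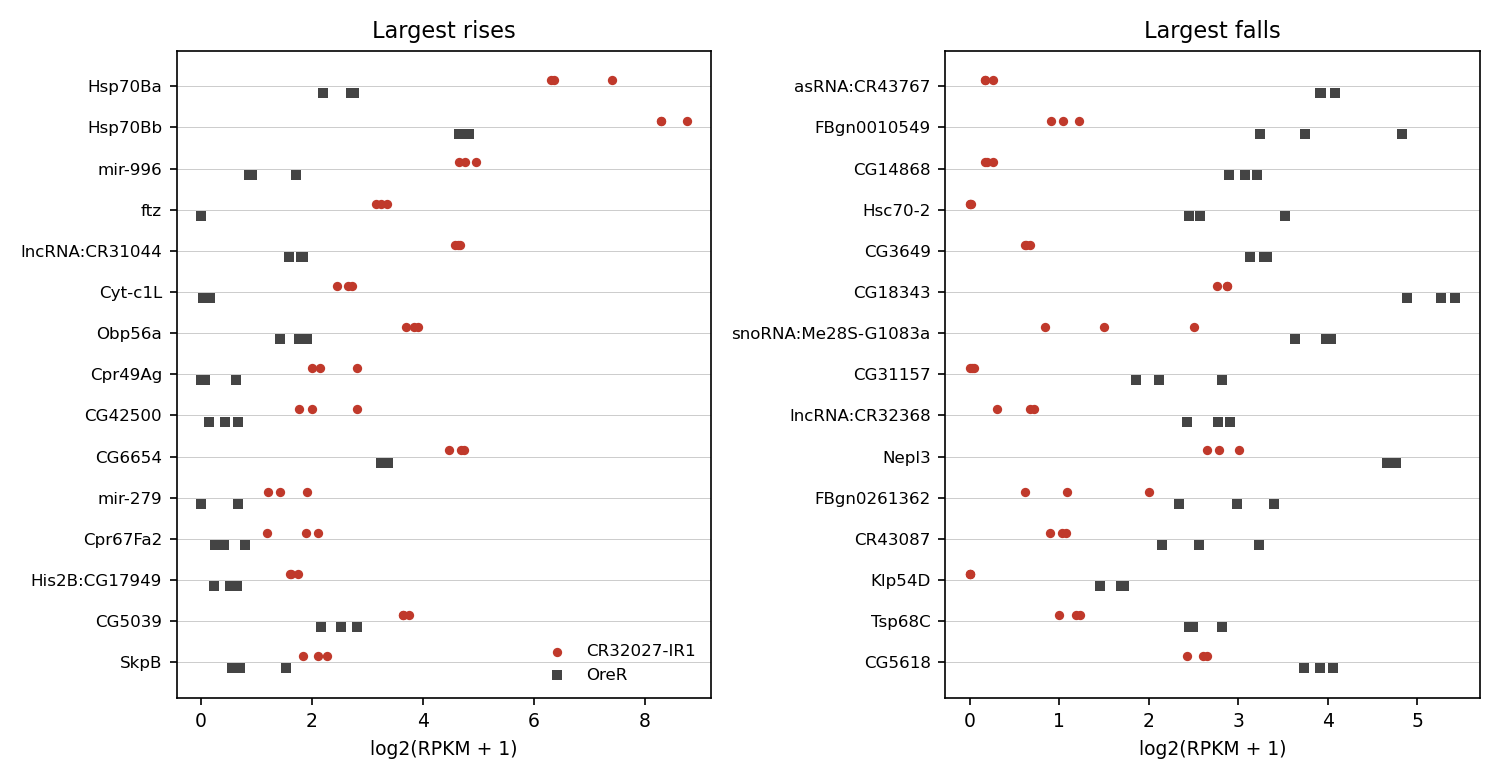
Values of log2(RPKM + 1) in every library (x axis) for the 15 largest rises and 15 largest falls among called genes (rows); red circles are the 3 libraries labelled CR32027-IR1 and dark squares the 3 OreR libraries. No row overlaps between genotypes, and the 3 OreR squares of ftz lie on top of each other at 0.

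Called genes changed in one direction stood side by side in 6 runs, of at least 3 genes or of pairs with changes of at least 1. Adjacent genes follow each other in BDGP6 order among the genes of the deposited table. Annotated genes absent from that table were skipped. On arm 3R the run of Cyt-c1L, CR31044, mir-279 and mir-996 was higher, over 17.0 kb. Cyt-c1L, which encodes a relative of the cytochrome c1 subunit of respiratory complex III, had 5.61, 4.44 and 5.23 RPKM in the libraries labelled CR32027-IR1, against 0.0268, 0.0747 and 0.119 RPKM in OreR. The genotypes lay far apart (limma, log2 change 2.50 ± 0.11, adjusted p = 2.82e-05). CR31044 (lncRNA:CR31044), a noncoding transcript, had 24.4, 23.6 and 22.8 RPKM in the libraries labelled CR32027-IR1, against 2.01, 2.59 and 2.48 RPKM in OreR (limma, log2 change 2.88 ± 0.08, adjusted p = 3.55e-06). The microRNA genes mir-279 and mir-996 lie inside CR31044, so their reads cannot be told from those of the longer transcript, and mir-279 had 18 reads against 2. Flanking genes were not called, with log2 changes of 0.02 at Mesh1 and -0.27 at eEF1gamma (limma, adjusted p = 0.954 and 0.0765).

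A second run on 3R held CG18542, Unc-115b, p24-2, CG32939 and Unc-115a, over 19.7 kb. Unc-115a and Unc-115b are neighbouring copies of a gene for an actin-binding LIM-domain protein, and p24-2 encodes a p24 family protein of traffic between endoplasmic reticulum and Golgi. Unc-115a had 26.6, 23.8 and 25.8 RPKM in the libraries labelled CR32027-IR1, against 14.4, 13.8 and 14.3 RPKM in OreR. Unc-115b had 68.8, 61.4 and 65.1 RPKM in the libraries labelled CR32027-IR1, against 39.0, 34.6 and 35.5 RPKM in OreR. In both, the libraries labelled CR32027-IR1 were at 179% of the OreR mean without overlap (limma, log2 change 0.80 ± 0.06 for Unc-115a and 0.82 ± 0.07 for Unc-115b, adjusted p = 0.000649 and 0.00104). The gene models of p24-2 and Unc-115b overlap along most of their length on one strand, so their reads may not be told apart. CG18542, whose end overlaps slightly with Unc-115b on the other strand, was at 156% of its OreR mean (limma, log2 change 0.59 ± 0.08, adjusted p = 0.00865). CG32939 was at 166% of its OreR mean (limma, log2 change 0.67 ± 0.08, adjusted p = 0.00652). The neighbours eca and trbd were not called, with log2 changes of 0.21 and 0.05.

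The third rising run lay on 2R over 197 kb and held CR41257, rl, CR42653, CR40190 and CG40191. The gene rl encodes the ERK MAP kinase that acts downstream of receptor tyrosine kinases, and it had 6.90, 7.40 and 7.58 RPKM in the libraries labelled CR32027-IR1, against 4.76, 5.21 and 5.43 RPKM in OreR (limma, log2 change 0.44 ± 0.07, adjusted p = 0.0153). CG40191 had 99.4, 103.7 and 105 RPKM in the libraries labelled CR32027-IR1, against 68.4, 68.9 and 71.8 RPKM in OreR, with all libraries labelled CR32027-IR1 above OreR (limma, log2 change 0.55 ± 0.05, adjusted p = 0.00195). On 3L, Ctr9, sturkopf and Herc4 were at 125% to 137% of OreR means over 11.1 kb. Ctr9 is a subunit of the Paf1 complex of transcribing RNA polymerase II, sturkopf encodes a lipid droplet protein and Herc4 a HERC-type ubiquitin ligase. The ends of Ctr9 and sturkopf overlap slightly. Cyt-c1L, lncRNA:CR31044, mir-996, Unc-115a, Unc-115b, p24-2, CG18542, CG32939, CG40191 and lncRNA:CR41257 stayed called whichever library was left out. mir-279, rl, CR42653 and Ctr9 lost their calls when CR32027-IR1 replicate 1 or OreR replicate 1 or 2 was left out (limma, adjusted p = 0.0518 to 0.129). CR40190 and Herc4 lost their calls when CR32027-IR1 replicate 1 or any 1 OreR library was left out (limma, adjusted p = 0.0678 to 0.0997). sturkopf lost the call when CR32027-IR1 replicate 1 or 3 or any 1 OreR library was left out (limma, adjusted p = 0.0508 to 0.119).

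Both falling runs were near 0 or repeated. Hsc70-2, a heat shock cognate gene, and its neighbour CG31157 lie on 3R within 4.54 kb. Hsc70-2 had 1 read in the 3 libraries labelled CR32027-IR1 together and 1470 in the 3 OreR libraries, and CG31157 had 3 reads in the 3 libraries labelled CR32027-IR1 together and 609 in the 3 OreR libraries. OreR values were 10.5, 4.45 and 4.97 RPKM for Hsc70-2 and 6.08, 2.62 and 3.35 RPKM for CG31157, so both genes were detected in every OreR library and nearly absent in the other genotype (limma, adjusted p = 0.00195 and 0.00311). The other run, on X, held 4 ribosomal RNA pseudogenes, whose sequences are close to other copies. They were at 45.6% (2SrRNA-Psi:CR40677), 64.7% (18SrRNA-Psi:CR41602), 60.3% (28SrRNA-Psi:CR40741) and 62.5% (28SrRNA-Psi:CR41609) of their OreR means. Hsc70-2, CG31157, 2SrRNA-Psi:CR40677 and 28SrRNA-Psi:CR40741 stayed called whichever library was left out. 18SrRNA-Psi:CR41602 lost the call when CR32027-IR1 replicate 1 was left out (limma, adjusted p = 0.0518). 28SrRNA-Psi:CR41609 lost the call when CR32027-IR1 replicate 1 or any 1 OreR library was left out (limma, adjusted p = 0.0926 to 0.129).

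**Figure D3:**
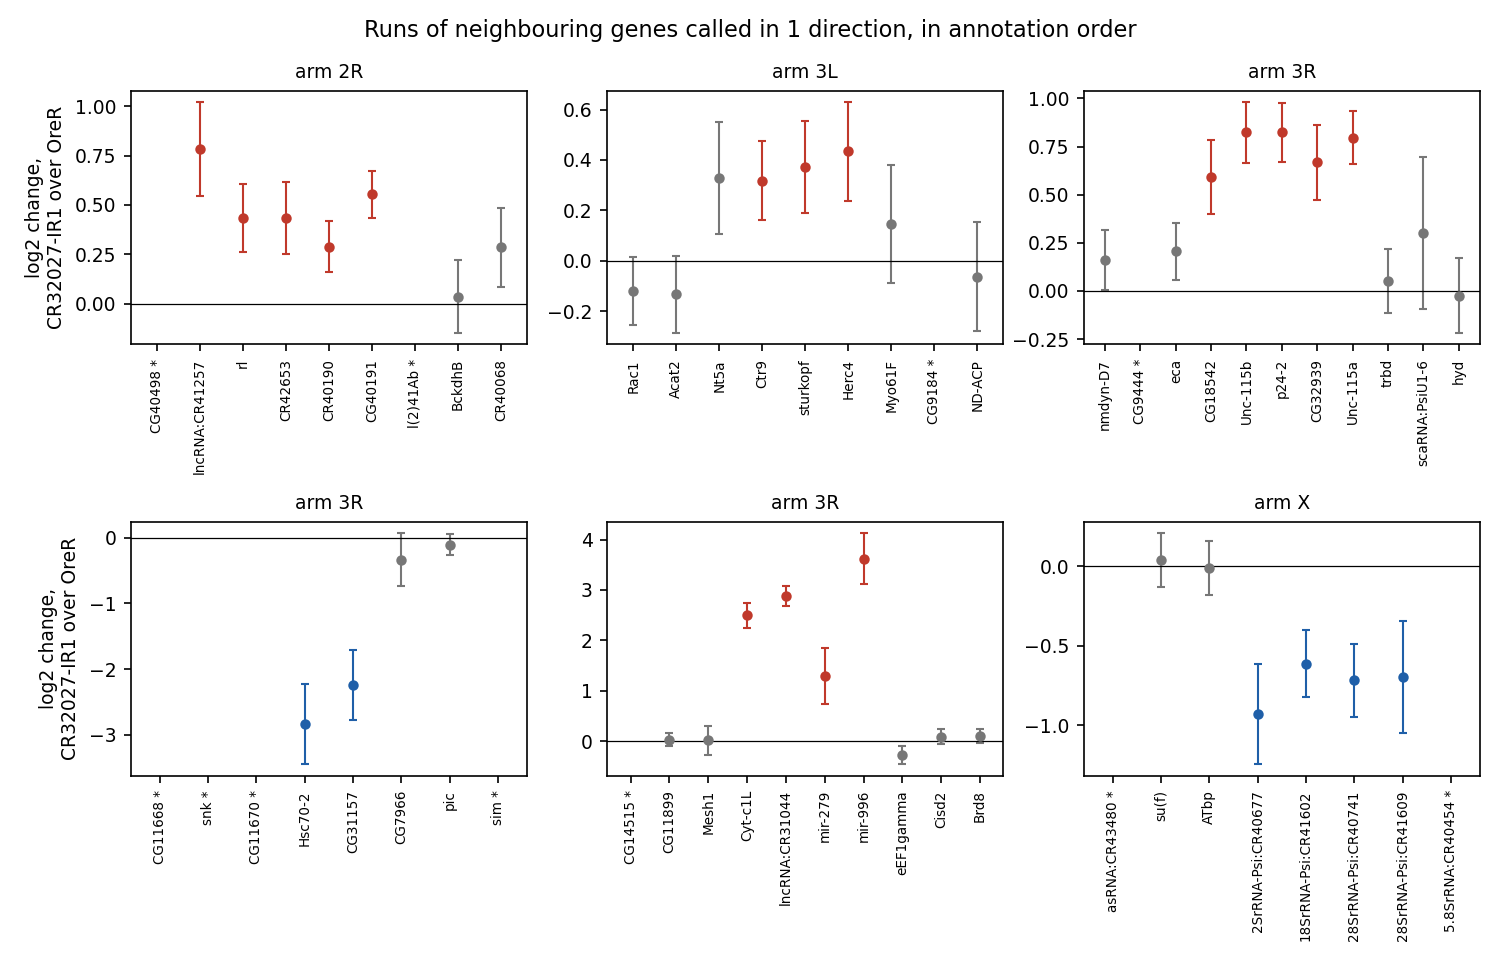
Log2 change, CR32027-IR1 over OreR (y axis), of the called genes of each run and their neighbours. Genes of the deposited table are drawn in BDGP6 order (x axis, not to scale). Red and blue are called higher and lower, grey is not called, and bars are 95% intervals. A star marks a gene with too low a level to be tested. None of the tested neighbours drawn was called, and some ends of runs have no tested gene beside them.

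Functional classes were described with 85 lists of gene families and complexes, which hold 1940 of the tested genes. In these, 129 genes were called (6.65%), 43 higher and 86 lower, against 480 of 5487 genes (8.75%) outside every list. A class count of about 8.20% of its genes is thus what the whole table gives. No gene was called in 29 classes and at least 3 were in 23. The median log2 change lay within 0.1 of 0 in 75 classes, above it in 5 and below it in 5. The 129 calls became 31 with OreR replicate 2 left out, 32 without CR32027-IR1 replicate 1, 54 and 55 without OreR replicates 3 and 1, 111 without CR32027-IR1 replicate 3, and 207 without CR32027-IR1 replicate 2.

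**Figure D4:**
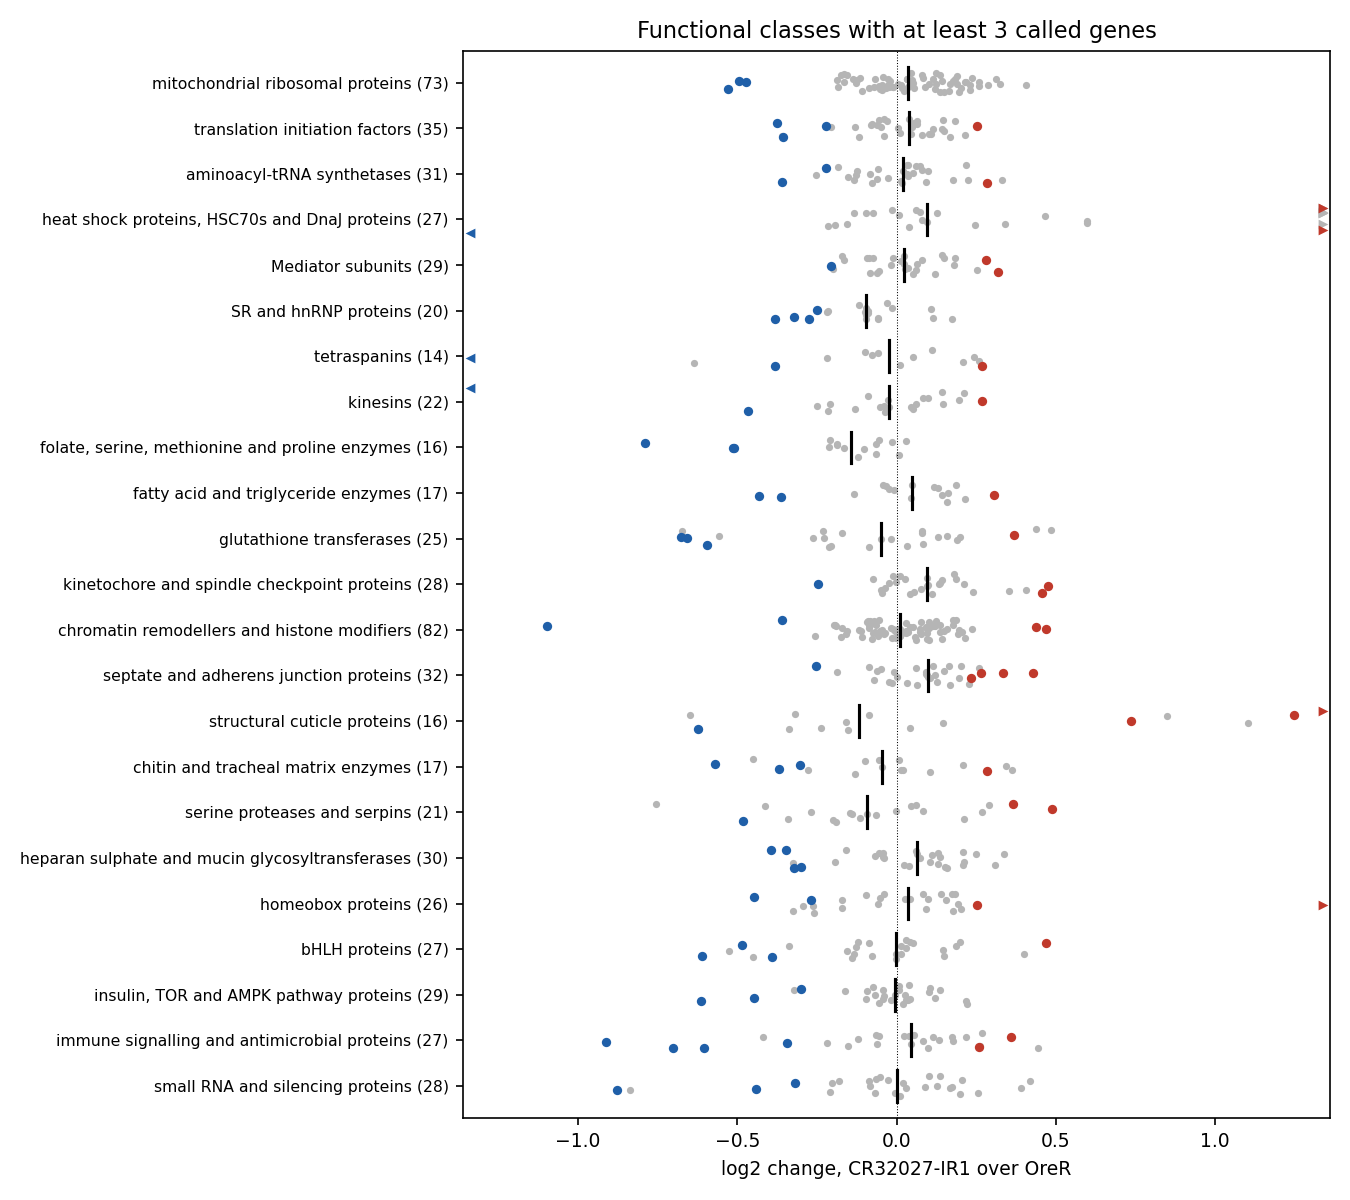
Log2 change, CR32027-IR1 over OreR (x axis), of every tested gene in the 23 classes with at least 3 called genes (rows, tested genes in brackets); red and blue points are called higher and lower, grey points did not pass, black bars are class medians, and triangles at the edges stand for genes beyond the axis. Called genes are few in each class and most medians lie near 0.

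Genes of protein synthesis were little changed, and those that were called mostly fell. Of 77 cytosolic ribosomal protein genes none was called, though 74 had a log2 change above 0 and the median was 0.15 against 0.01 over all genes. Of 73 mitochondrial ribosomal protein genes 3 were lower and none higher (median 0.04). The large-subunit gene mRpL50 had 17.5, 18.3 and 17.9 RPKM in the libraries labelled CR32027-IR1, against 25.5, 27.7 and 25.7 RPKM in OreR, without overlap (limma, log2 change -0.53 ± 0.06, adjusted p = 0.00377). Its relatives mRpL52 and mRpL10 were at 71.3% and 69.1% of OreR. Among 35 translation initiation factors 3 were lower and 1 higher. The cap-binding protein gene eIF4E1 had 124, 119 and 116 RPKM in the libraries labelled CR32027-IR1, against 151, 152 and 156 RPKM in OreR, again apart (limma, log2 change -0.36 ± 0.05, adjusted p = 0.00963). Also lower were eIF2Bdelta, a subunit of the exchange factor that recharges eIF2, and eIF2beta (log2 changes -0.37 and -0.22), while eIF3l of the scaffold factor eIF3 was higher (0.25). Of 11 elongation and release factors 2 were lower, the mitochondrial elongation factor mEFTu1 (-0.68) and eEF1beta (-0.38), with 9 of 11 changes below 0. Of 31 aminoacyl-tRNA synthetases, which charge tRNAs, MetRS (-0.36) and GluProRS (-0.22) were lower and the mitochondrial AsnRS-m (0.29) higher. mRpL50 stayed called whichever library was left out. mRpL52 and AsnRS-m lost their calls when CR32027-IR1 replicate 1 or any 1 OreR library was left out (limma, adjusted p = 0.0586 to 0.111). mRpL10, eIF3l and GluProRS lost their calls when CR32027-IR1 replicate 1 or 3 or any 1 OreR library was left out (limma, adjusted p = 0.0525 to 0.18). eIF4E1 lost the call when OreR replicate 2 was left out (limma, adjusted p = 0.0524). eIF2Bdelta, mEFTu1 and MetRS lost their calls when CR32027-IR1 replicate 1 or OreR replicate 2 was left out (limma, adjusted p = 0.052 to 0.0596). eIF2beta and eEF1beta lost their calls when CR32027-IR1 replicate 1 or 2 or any 1 OreR library was left out (limma, adjusted p = 0.0556 to 0.174).

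Protein folding and turnover machinery gave few calls beside the heat shock genes. None was called among 7 CCT chaperonin, 6 prefoldin, 37 proteasome, 15 ubiquitin-conjugating and 19 autophagy genes. The nearest in these were the proteasome base subunits Rpn2 and Rpn1, which bind ubiquitin receptors, with log2 changes of -0.25 ± 0.07 and -0.23 ± 0.07 (limma, adjusted p = 0.0848 and 0.108). Of 27 heat shock, HSC70 and DnaJ genes 2 were higher and 1 lower, all described above. Of 8 subunits of the COP9 signalosome, which removes Nedd8 from cullin ligases, CSN1b was lower and had 34.4, 33.0 and 33.7 RPKM in the libraries labelled CR32027-IR1, against 43.3, 46.6 and 45.6 RPKM in OreR. Those values did not overlap (limma, log2 change -0.41 ± 0.05, adjusted p = 0.0067). EloB, the Elongin B adaptor of cullin ligases, fell to 81.0% of OreR, and Usp30, a deubiquitinase of mitochondria in mammals, to 70.2%. CSN1b stayed called whichever library was left out. EloB lost the call when CR32027-IR1 replicate 1 or OreR replicate 1 or 2 was left out (limma, adjusted p = 0.0514 to 0.0642). Usp30 lost the call when CR32027-IR1 replicate 1 or OreR replicate 2 was left out (limma, adjusted p = 0.0521 to 0.0525).

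In RNA synthesis and processing falls were spread over several classes. Only the SR and hnRNP (20%) and Mediator (10.3%) classes exceeded the 8.20% called over all genes. Of 20 SR and hnRNP genes, which govern splice site choice and mRNA packaging, 4 were lower and none higher, and 17 of 20 changes were below 0. Hrb98DE, an hnRNP A homolog, had 91.5, 92.9 and 81.4 RPKM in the libraries labelled CR32027-IR1, against 115.1, 119 and 112 RPKM in OreR, apart in all libraries (limma, log2 change -0.38 ± 0.07, adjusted p = 0.0165). The SR protein genes Rsf1 (-0.28), Srp54 (-0.25) and x16 (-0.32) were lower by smaller amounts. Of 29 exosome and RNA decay genes 2 were lower and none higher. The 5′ to 3′ exonuclease gene pcm had 17.7, 17.7 and 17.7 RPKM in the libraries labelled CR32027-IR1, against 23.01, 23.5 and 23.01 RPKM in OreR, with almost no spread within a genotype (limma, log2 change -0.37 ± 0.05, adjusted p = 0.00731), and Pat1, which promotes decapping, was at 81.9% of OreR. SNRPG, a subunit of the Sm ring of spliceosomal snRNPs, fell to 72.5% of OreR. Mediator, which bridges activators and RNA polymerase II, had 29 genes tested, with MED10 (0.28) and MED21 (0.32) higher and MED15 (-0.20) lower. Of 36 splicing helicases and factors Prp40 (-0.25) was lower. Of 31 general transcription factors the TATA-binding protein gene Tbp (-0.31) and Taf10b (-0.29), a subunit of TFIID, were lower, and of 28 nucleoporins, which build the nuclear pore, Nup133 (-0.31) and Elys (-0.28) were lower. No gene was called among 30 RNA polymerase subunits or 12 Integrator subunits. pcm stayed called whichever library was left out. Hrb98DE lost the call when CR32027-IR1 replicate 1 or OreR replicate 1 or 2 was left out (limma, adjusted p = 0.0622 to 0.0802). Rsf1, Pat1, MED10 and MED21 lost their calls when CR32027-IR1 replicate 1 or any 1 OreR library was left out (limma, adjusted p = 0.0528 to 0.116). Srp54, Tbp and Elys lost their calls when CR32027-IR1 replicate 1 or 3 or any 1 OreR library was left out (limma, adjusted p = 0.0505 to 0.148). x16 and Taf10b lost their calls when CR32027-IR1 replicate 1 or 2 or any 1 OreR library was left out (limma, adjusted p = 0.0552 to 0.159). SNRPG lost the call when CR32027-IR1 replicate 1 or OreR replicate 2 was left out (limma, adjusted p = 0.0521 to 0.0537). MED15 and Prp40 lost their calls when any 1 of the 6 libraries was left out (limma, adjusted p = 0.0517 to 0.193). Nup133 lost the call when CR32027-IR1 replicate 1 or OreR replicate 2 or 3 was left out (limma, adjusted p = 0.0705 to 0.083).

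Respiratory chain genes of the nucleus gave few calls, while several enzymes of amino acid metabolism fell. No gene was called among 32 complex I and 14 ATP synthase genes, and medians were 0.04 and 0.02. Of 14 complex II and III genes Cyt-c1L, described above, was higher, and of 13 complex IV genes Cox17 was lower. Of 19 tricarboxylic acid cycle genes 2 were lower. ScsbetaA, a subunit of succinyl-CoA synthetase, had 23.2, 25.8 and 27.2 RPKM in the libraries labelled CR32027-IR1, against 36.9, 38.5 and 40.1 RPKM in OreR, without overlap (limma, log2 change -0.58 ± 0.07, adjusted p = 0.00612). Pdha, a subunit of the pyruvate dehydrogenase that feeds the cycle, was at 81.7% of OreR, and the copper chaperone gene Cox17 at 72.9%.

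Of 16 tested genes of folate, serine, methionine and proline metabolism 3 were lower and none higher, 14 of 16 changes were below 0, and the median was -0.14. Gdh, the glutamate dehydrogenase, had 30.3, 28.2 and 34.7 RPKM in the libraries labelled CR32027-IR1, against 46.9, 56.5 and 59.9 RPKM in OreR. This was 57.0% of the OreR mean (limma, log2 change -0.79 ± 0.11, adjusted p = 0.00865). The proline dehydrogenase gene slgA had 9.22, 9.28 and 8.64 RPKM in the libraries labelled CR32027-IR1, against 13.7, 13.2 and 12.9 RPKM in OreR (limma, log2 change -0.51 ± 0.06, adjusted p = 0.00586). Cth, the cystathionine gamma-lyase of cysteine synthesis, was at 69.5% of OreR (limma, log2 change -0.51 ± 0.07, adjusted p = 0.00963). The 3 genes were also the only 3 called in this class in each fit that left out 1 library and in the fit of all 9 libraries of the series. ScsbetaA, Gdh, slgA and Cth stayed called whichever library was left out. Pdha lost the call when CR32027-IR1 replicate 1 or any 1 OreR library was left out (limma, adjusted p = 0.0539 to 0.0963). Cox17 lost the call when CR32027-IR1 replicate 1 or OreR replicate 2 was left out (limma, adjusted p = 0.0603 to 0.0642).

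Lipid and detoxification genes moved in both directions. Desat1, the delta-9 desaturase, was higher with 54.0, 49.3 and 55.6 RPKM in the libraries labelled CR32027-IR1, against 41.7, 40.7 and 45.5 RPKM in OreR, a gap of a few RPKM between the nearest libraries (limma, log2 change 0.31 ± 0.07, adjusted p = 0.0363). Lsd-2, a perilipin of lipid droplets, had 86.2, 92.5 and 75.6 RPKM in the libraries labelled CR32027-IR1, against 105, 120.05 and 118 RPKM in OreR (limma, log2 change -0.43 ± 0.09, adjusted p = 0.0276), and Baldspot, a fatty acid elongase, was at 74.1% of OreR. These 3 were the called genes of 17 tested. Of 25 glutathione transferases, which conjugate glutathione to reactive compounds, GstE5 (-0.66), Mgstl (-0.68) and GstT3 (-0.59) were lower and GstO1 (0.37) higher. Cyp4e2 was the 1 called of 13 cytochrome P450 genes and fell to 54.4% of OreR. None was called among 9 pentose phosphate, 22 nucleotide synthesis, 6 UDP-glycosyltransferase and 20 antioxidant genes. Desat1 lost the call when CR32027-IR1 replicate 1 or 3 or any 1 OreR library was left out (limma, adjusted p = 0.0586 to 0.148). Lsd-2 lost the call when CR32027-IR1 replicate 1 or OreR replicate 2 or 3 was left out (limma, adjusted p = 0.0945 to 0.114). Baldspot and Mgstl lost their calls when CR32027-IR1 replicate 1 or any 1 OreR library was left out (limma, adjusted p = 0.0683 to 0.108). GstE5 lost the call when OreR replicate 2 was left out (limma, adjusted p = 0.0608). GstT3 lost the call when CR32027-IR1 replicate 1 or OreR replicate 1 or 2 was left out (limma, adjusted p = 0.108 to 0.124). GstO1 and Cyp4e2 lost their calls when CR32027-IR1 replicate 1 was left out (limma, adjusted p = 0.0518 to 0.0606).

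The secretory pathway gave few calls. No gene was called among 17 COPI and Arf, 25 COPII and translocon and 22 Rab genes. AP-1mu, the cargo-binding subunit of the AP-1 clathrin adaptor of the Golgi, had 40.04, 41.2 and 41.3 RPKM in the libraries labelled CR32027-IR1, against 59.0, 53.4 and 56.8 RPKM in OreR, apart by over 10 RPKM (limma, log2 change -0.45 ± 0.06, adjusted p = 0.00612). The dynamin gene shi was at 78.1% of OreR. Another 2 genes, of N-glycan assembly, moved in opposite directions, the mannosyltransferase genes Alg9 (log2 change -0.50 ± 0.07) and Alg1 (0.39 ± 0.09). Of the endosomal genes Snx16 (0.24) and Vps2 (0.22) were higher, as was the SNARE gene Snap29 (0.34), and of 13 vacuolar proton pump genes VhaM9.7-c (-0.43) and Vha68-2 (-0.29) were lower. AP-1mu and Alg9 stayed called whichever library was left out. Alg1, shi, Snx16 and Vps2 lost their calls when CR32027-IR1 replicate 1 or 3 or any 1 OreR library was left out (limma, adjusted p = 0.0569 to 0.159). Snap29 lost the call when CR32027-IR1 replicate 1 or OreR replicate 2 was left out (limma, adjusted p = 0.0592 to 0.0633). VhaM9.7-c lost the call when CR32027-IR1 replicate 1 was left out (limma, adjusted p = 0.0503). Vha68-2 lost the call when CR32027-IR1 replicate 1 or 2 or any 1 OreR library was left out (limma, adjusted p = 0.0549 to 0.146).

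The next families were chosen after their values were seen and are described only. The ER membrane protein complex inserts membrane proteins, and of its 10 genes 4 were lower. EMC7 had 28.1, 32.0 and 29.6 RPKM in the libraries labelled CR32027-IR1, against 40.9, 41.6 and 41.9 RPKM in OreR, and EMC8-9 had 31.4, 32.3 and 30.9 RPKM in the libraries labelled CR32027-IR1, against 44.3, 44.9 and 41.6 RPKM in OreR. Neither gene overlapped between genotypes (limma, log2 changes -0.46 ± 0.06 and -0.45 ± 0.05, adjusted p = 0.00731 and 0.00586), and EMC1 (-0.35) and EMC3 (-0.21) were lower by less. Enzymes that build and attach the glycolipid anchor of GPI-linked proteins gave 5 lower genes of 21. PIG-O, which adds ethanolamine phosphate to the anchor, had 12.5, 13.8 and 12.8 RPKM in the libraries labelled CR32027-IR1, against 18.6, 17.7 and 18.5 RPKM in OreR (limma, log2 change -0.46 ± 0.06, adjusted p = 0.00731). PIG-G (-0.29), PIG-N (-0.39), PIG-L (-0.40) and PIG-U (-0.28) were also lower, and the class median was -0.03. EMC7, EMC8-9 and PIG-O stayed called whichever library was left out. EMC1 lost the call when CR32027-IR1 replicate 1 or 3 or any 1 OreR library was left out (limma, adjusted p = 0.0826 to 0.147). EMC3 lost the call when any 1 of the 6 libraries was left out (limma, adjusted p = 0.0713 to 0.146). PIG-G, PIG-N and PIG-U lost their calls when CR32027-IR1 replicate 1 or any 1 OreR library was left out (limma, adjusted p = 0.072 to 0.132). PIG-L lost the call when CR32027-IR1 replicate 3 or any 1 OreR library was left out (limma, adjusted p = 0.0586 to 0.103).

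Cytoskeletal genes gave few calls. None of 42 actin regulators, 11 myosins and 11 tubulin genes was called. Of 22 kinesins Klp54D and pav were lower and Klc higher. The kinesin-6 gene pav, which acts in cytokinesis, had 41.0, 36.0 and 36.3 RPKM in the libraries labelled CR32027-IR1, against 48.4, 57.0 and 52.5 RPKM in OreR (limma, log2 change -0.47 ± 0.08, adjusted p = 0.0153), and Klc, the kinesin light chain, was at 121% of OreR.

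Most replication genes had changes above 0, with few calls in the fit of all 6 libraries. Of 36 subunits of the replicative helicase, origin complex, GINS and polymerases, 29 had a change above 0 (median 0.18), and Orc4, a subunit of the origin recognition complex, was called (0.36 ± 0.08). Between 0 and 10 of the 36 were called in the fits that left out 1 library. No cyclin, CDK or CDK inhibitor gene of 35 was called. Of 28 kinetochore and checkpoint genes pim, the securin that restrains separase, had 67.8, 55.9 and 62.1 RPKM in the libraries labelled CR32027-IR1, against 44.5, 46.6 and 43.2 RPKM in OreR, and borr, the Borealin of the chromosomal passenger complex, was at 140% of OreR. The spindle checkpoint gene Mad1 was lower (-0.25 ± 0.06). In the fits that left out 1 library, 0 to 8 of the 28 kinetochore and checkpoint genes were called. Of 82 chromatin genes 2 were higher and 2 lower. Acf, which encodes a subunit of the nucleosome-spacing complexes ACF and CHRAC, had 9.81, 11.7 and 10.4 RPKM in the libraries labelled CR32027-IR1, against 21.0, 24.6 and 26.2 RPKM in OreR. It fell to 44.5% of its OreR mean, with no overlap (limma, log2 change -1.10 ± 0.10, adjusted p = 0.00165). The other lower chromatin gene was mof (-0.36 ± 0.07). The Polycomb group gene esc (0.47 ± 0.11) and the remodeller gene Chd3 (0.44 ± 0.10) were higher. Acf stayed called whichever library was left out. pav lost the call when OreR replicate 2 or 3 was left out (limma, adjusted p = 0.0586 to 0.0642). Klc, pim and mof lost their calls when CR32027-IR1 replicate 1 or any 1 OreR library was left out (limma, adjusted p = 0.0542 to 0.14). Orc4, Mad1, esc and Chd3 lost their calls when CR32027-IR1 replicate 1 or 3 or any 1 OreR library was left out (limma, adjusted p = 0.0601 to 0.148). borr lost the call when CR32027-IR1 replicate 1 or 3 or OreR replicate 1 or 3 was left out (limma, adjusted p = 0.0787 to 0.134).

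Several junction genes were higher, while cuticle and matrix genes were called in both directions. Of 32 septate and adherens junction genes 4 were higher and 1 lower (median 0.10). The septate junction gene nrv2, a beta subunit of the sodium pump, had 36.0, 34.1 and 37.99 RPKM in the libraries labelled CR32027-IR1, against 25.3, 26.7 and 27.6 RPKM in OreR (limma, log2 change 0.43 ± 0.06, adjusted p = 0.00963). It is also in the list of neural and glial markers, which summed to 39.4 to 43.1 RPKM in libraries labelled CR32027-IR1 and 29.8 to 32.6 RPKM in OreR, most of it from nrv2 itself. The other genes of the list were not called or not tested. The neuronal gene elav averaged 3.34 RPKM in libraries labelled CR32027-IR1 and 3.54 RPKM in OreR, and the glial gene moody 1.69 RPKM in libraries labelled CR32027-IR1 and 1.27 RPKM in OreR (limma, adjusted p = 0.639 and 0.243). Both nSyb and repo were at or near 0. Also higher were crok (0.33) and cold (0.23), Ly6-like proteins that septate junctions need, and pasi1 (0.26), while the apical polarity gene par-6 was lower (-0.25). Of 16 structural cuticle genes 3 were higher and 1 lower. TwdlE, of the Tweedle family, had 8.73, 10.4 and 8.50 RPKM in the libraries labelled CR32027-IR1, against 6.37, 4.49 and 4.63 RPKM in OreR, and Cpr66D was at 61.0% of OreR (limma, adjusted p = 0.0175 and 0.0171). nrv2 and Cpr66D lost their calls when CR32027-IR1 replicate 1 was left out (limma, adjusted p = 0.0518 to 0.0769). crok and TwdlE lost their calls when CR32027-IR1 replicate 1 or OreR replicate 2 or 3 was left out (limma, adjusted p = 0.0518 to 0.0932). cold and par-6 lost their calls when CR32027-IR1 replicate 1 or 3 or any 1 OreR library was left out (limma, adjusted p = 0.0664 to 0.174). pasi1 lost the call when CR32027-IR1 replicate 1 or any 1 OreR library was left out (limma, adjusted p = 0.0582 to 0.129).

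Of 17 chitin and tracheal matrix genes 3 were lower and 1 higher. Gasp, a chitin-binding protein of the tracheal lumen, had 11.4, 11.1 and 10.8 RPKM in the libraries labelled CR32027-IR1, against 14.4, 18.7 and 18.1 RPKM in OreR, and obst-A, another chitin-binding protein, had 56.3, 52.3 and 51.5 RPKM in the libraries labelled CR32027-IR1, against 65.5, 68.4 and 64.4 RPKM in OreR. Both lay below OreR in all libraries labelled CR32027-IR1 (limma, log2 changes -0.57 ± 0.10 and -0.30 ± 0.06, adjusted p = 0.0148 and 0.0204). The chitinase gene Cht2 was at 77.1% of OreR and rtv, needed to order chitin fibres, at 122.7%. Trachea cling to the disc. Tracheal markers numbered 7, and the 5 measured summed to 241 to 327 RPKM in libraries labelled CR32027-IR1 and 229 to 297 RPKM in OreR. Among them trh, the tracheal selector, was lower (-0.39 ± 0.09). The others were not called, with log2 changes of 0.36 for verm, 0.34 for serp, -0.06 for vvl and -0.10 for kkv. The part of tracheal cells in the falls of Gasp, obst-A, Cht2 and trh was not tested. Of 30 heparan sulphate and mucin glycosyltransferases 4 were lower and none higher, although the class median was 0.06. These were botv (-0.39) and sotv (-0.35), which polymerise heparan sulphate, Hs2st (-0.30), which sulphates it, and Pgant3 (-0.32), which starts mucin-type O-glycans. Of 21 serine proteases and serpins Spn88Ea (0.37) and Spn42De (0.49) were higher and Spn47C (-0.48) lower. ItgaPS5, an integrin alpha subunit, fell to 61.7% of OreR. Gasp and ItgaPS5 lost their calls when CR32027-IR1 replicate 1 or OreR replicate 2 or 3 was left out (limma, adjusted p = 0.0604 to 0.0776). obst-A, Cht2, botv, sotv and Pgant3 lost their calls when CR32027-IR1 replicate 1 or any 1 OreR library was left out (limma, adjusted p = 0.0502 to 0.135). rtv, Hs2st and Spn42De lost their calls when CR32027-IR1 replicate 1 or 3 or any 1 OreR library was left out (limma, adjusted p = 0.0569 to 0.161). trh lost the call when any 1 of the 6 libraries was left out (limma, adjusted p = 0.0576 to 0.159). Spn88Ea and Spn47C lost their calls when CR32027-IR1 replicate 1 or OreR replicate 2 was left out (limma, adjusted p = 0.0502 to 0.0577).

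Methuselah-like receptors, a family of G protein-coupled receptors picked after the values were seen, had 1 higher and 2 lower genes of 8. The receptor gene mthl8 had 16.6, 16.3 and 18.5 RPKM in the libraries labelled CR32027-IR1, against 7.79, 7.92 and 7.99 RPKM in OreR, and this was 217% of the OreR mean with no overlap (limma, log2 change 1.02 ± 0.07, adjusted p = 0.000289). Values of mthl3 (-0.48) and mthl4 (-0.42) were lower. Ir40a, an ionotropic receptor of humidity-sensing neurons in the adult antenna, had 1.94, 2.01 and 1.88 RPKM in the libraries labelled CR32027-IR1, against 3.63, 3.43 and 3.70 RPKM in OreR and was lower (limma, log2 change -0.64 ± 0.08, adjusted p = 0.00611). mthl8 and Ir40a stayed called whichever library was left out. mthl3 lost the call when CR32027-IR1 replicate 1 or OreR replicate 2 was left out (limma, adjusted p = 0.0559 to 0.0657). mthl4 lost the call when CR32027-IR1 replicate 1 or any 1 OreR library was left out (limma, adjusted p = 0.0894 to 0.131).

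Transcription factors of disc patterning showed a small set of changes. Of 27 bHLH genes 3 were lower and 1 higher. The proneural genes ac and sc of the achaete-scute complex start sensory bristle precursors. Values of ac were 11.6, 10.8 and 10.7 RPKM in the libraries labelled CR32027-IR1, against 16.9, 15.001 and 15.5 RPKM in OreR. Values of sc were 12.01, 9.82 and 9.62 RPKM in the libraries labelled CR32027-IR1, against 17.5, 16.7 and 15.3 RPKM in OreR. Both genes were lower with no overlap (limma, log2 changes -0.48 ± 0.07 and -0.61 ± 0.09, adjusted p = 0.00865 and 0.0108). The circadian partner of Clock, cyc, was higher with 50.8, 43.6 and 46.9 RPKM in the libraries labelled CR32027-IR1, against 34.0, 34.6 and 32.3 RPKM in OreR (limma, log2 change 0.47 ± 0.07, adjusted p = 0.00963). Of 26 homeobox genes nub, which marks the pouch, and Optix were lower (-0.27 and -0.45), and ftz and achi were higher (0.25 for achi). No gene was called among 13 nuclear receptors, 14 forkhead, SOX, T-box and GATA genes, 21 ETS, bZIP, STAT and NF-kB genes or 32 BTB and other zinc finger genes. The nearest was the T-box gene Doc1, with 10.6, 8.30 and 10.2 RPKM in the libraries labelled CR32027-IR1, against 12.1, 12.99 and 14.4 RPKM in OreR (limma, adjusted p = 0.0521). ac and cyc stayed called whichever library was left out. sc lost the call when OreR replicate 2 was left out (limma, adjusted p = 0.0548). nub and Optix lost their calls when CR32027-IR1 replicate 1 or 3 or any 1 OreR library was left out (limma, adjusted p = 0.0571 to 0.146). achi lost the call when any 1 of the 6 libraries was left out (limma, adjusted p = 0.0553 to 0.178).

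In signalling 10.3% of insulin, TOR and AMPK pathway genes, 4.35% of protein phosphatase subunits and 22.2% of immune genes were called. Over all genes the share was 8.20%. None of 20 small GTPase and trimeric G protein genes was called. Of 29 insulin, TOR and AMPK pathway genes 3 were lower and none higher. The Rag GTPases bring TORC1 to the lysosome when amino acids are present. RagA-B had 12.4, 11.9 and 12.7 RPKM in the libraries labelled CR32027-IR1, against 16.2, 17.7 and 17.7 RPKM in OreR, without overlap (limma, log2 change -0.45 ± 0.06, adjusted p = 0.00865), and its partner RagC-D was at 80.6% of OreR. Sdr, a secreted protein that binds insulin-like peptides, was at 62.5%. Lamtor3, of the Ragulator that anchors the Rag GTPases, was lower too (-0.32), which made 3 of 7 genes in a Rag and Ragulator list chosen after the values were seen. Of 23 protein phosphatase subunits Pp1-87B, a catalytic subunit of protein phosphatase 1, was lower (-0.29). Of 27 immune genes 4 were lower and 2 higher. Tep2 and Tep4 encode complement-like thioester proteins. Tep2 had 5.58, 5.42 and 5.81 RPKM in the libraries labelled CR32027-IR1, against 9.81, 10.2 and 9.21 RPKM in OreR, and Tep4 had 5.58, 6.51 and 8.57 RPKM in the libraries labelled CR32027-IR1, against 13.9, 12.97 and 14.2 RPKM in OreR. Both were below OreR in all 3 libraries (limma, log2 changes -0.70 ± 0.07 and -0.91 ± 0.13, adjusted p = 0.00225 and 0.00963). In the Toll pathway the kinase gene pll (0.36) and the recognition gene GNBP1 (0.26) were higher, while the adaptor gene Myd88 (-0.34) and GNBP2 (-0.60) were lower. RagA-B, Tep2 and Tep4 stayed called whichever library was left out. RagC-D, Lamtor3, Myd88, GNBP2 and Pp1-87B lost their calls when CR32027-IR1 replicate 1 or any 1 OreR library was left out (limma, adjusted p = 0.0553 to 0.142). Sdr lost the call when OreR replicate 1 or 2 was left out (limma, adjusted p = 0.0642 to 0.0655). pll lost the call when CR32027-IR1 replicate 1 or OreR replicate 2 or 3 was left out (limma, adjusted p = 0.0524 to 0.069). GNBP1 lost the call when CR32027-IR1 replicate 1 or 3 or any 1 OreR library was left out (limma, adjusted p = 0.0578 to 0.138).

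Of 28 small RNA and silencing genes 3 were lower and none higher. Dcr-2, which the shared UAS-dicer2 transgene also produces, had 559, 433 and 417 RPKM in the libraries labelled CR32027-IR1, against 919, 902 and 756 RPKM in OreR (limma, log2 change -0.88 ± 0.13, adjusted p = 0.00996). The OreR libraries were all well above those labelled CR32027-IR1. The gene w, the eye colour gene that fly transgenes commonly carry as a marker, had 385, 426 and 386 RPKM in the libraries labelled CR32027-IR1, against 426, 456 and 454 RPKM in OreR, nearly touching between genotypes, and did not pass (limma, log2 change -0.16 ± 0.07, adjusted p = 0.186). Loqs, a double-stranded RNA-binding partner of the Dicers encoded by loqs, had 15.3, 14.5 and 17.8 RPKM in the libraries labelled CR32027-IR1, against 22.2, 21.9 and 21.5 RPKM in OreR (limma, log2 change -0.44 ± 0.08, adjusted p = 0.0178), and vig2, related to the RISC component vig, was at 80.1% of OreR. Dcr-2 lost the call when OreR replicate 2 was left out (limma, adjusted p = 0.0522). loqs and vig2 lost their calls when CR32027-IR1 replicate 1 or any 1 OreR library was left out (limma, adjusted p = 0.0513 to 0.1).

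Among gene types, described after the values were seen, the 5 tested ribosomal RNA pseudogenes were all lower, 28SrRNA-Psi:CR40596 on the unplaced rDNA with 5.94, 5.76 and 8.02 RPKM in the libraries labelled CR32027-IR1, against 12.96, 12.5 and 12.7 RPKM in OreR. The summed level of 107 rRNA and rRNA pseudogenes was 167, 157 and 213 RPKM in libraries labelled CR32027-IR1, against 287, 277 and 276 RPKM in OreR. OreR libraries were all higher in this remnant of rRNA after selection of mRNA, and in the fit of all 9 libraries of the series 1 of the 5 stayed called. Of 24 mitochondrially encoded genes 3 were higher, mt:ATPase6 (0.44), mt:ND5 (0.35) and mt:srRNA (0.45), with a median of 0.30. Their summed level overlapped, at 33876, 32728 and 37664 RPKM in libraries labelled CR32027-IR1 and 37768, 34523 and 31440 RPKM in OreR, and with all 9 libraries fitted none of the 3 was called. 28SrRNA-Psi:CR40596 stayed called whichever library was left out. mt:ATPase6, mt:ND5 and mt:srRNA lost their calls when CR32027-IR1 replicate 1 or any 1 OreR library was left out (limma, adjusted p = 0.0559 to 0.161).

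Of 137 small nucleolar RNA genes, guides of rRNA modification, 7 were higher and 7 lower, for example snoRNA:Psi28S-3327c at 256% of OreR on 70 reads against 26, and snoRNA:Or-CD4 at 51.6% on 51 reads against 92. Libraries of mRNA may hold these small RNAs only as parts of host transcripts, which cannot be told apart here. Of 42 long noncoding RNA genes 4 were higher and 5 lower. CR43264 (lncRNA:CR43264) had 11.5, 14.4 and 11.7 RPKM in the libraries labelled CR32027-IR1, against 26.7, 23.5 and 19.97 RPKM in OreR (limma, log2 change -0.85 ± 0.12, adjusted p = 0.00963), and CR43907 (lncRNA:CR43907) had 12 reads against 90. Of 25 microRNA genes 3 were higher, among them mir-2500 at 199% of OreR. snoRNA:Or-CD4, lncRNA:CR43264 and lncRNA:CR43907 stayed called whichever library was left out. snoRNA:Psi28S-3327c lost the call when CR32027-IR1 replicate 1 was left out (limma, adjusted p = 0.0513). mir-2500 lost the call when CR32027-IR1 replicate 1 or OreR replicate 2 or 3 was left out (limma, adjusted p = 0.0556 to 0.0655).

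By chromosome arm, the share of rises was smaller on X than on each large autosomal arm. On X 17 of 1208 tested genes were higher (1.41%) and 57 lower (4.72%), and on the large autosomal arms 204 of 5783 were higher (3.53%) and 284 lower (4.91%). Median log2 changes were -0.00 on X and 0.02 on the autosomal arms. None of the 17 X-linked rises and 13 of the 57 falls stayed called whichever library was left out. The number of X-linked rises was 0 when either CR32027-IR1 replicate 1 or OreR replicate 2 was left out, 3 and 4 without OreR replicates 1 and 3, and 9 and 45 without CR32027-IR1 replicates 3 and 2, and it was 26 with libraries scaled to equal medians. Small genes held most rises. Among 2755 genes spanning up to 2 kb 138 were higher (5.01%) and 127 lower (4.61%). Among 1015 genes spanning over 10 kb 8 were higher (0.788%) and 27 lower (2.66%), so falls were also fewer there. The share of falls was largest at 2 to 5 kb, at 6.37%. Over all tested genes 3.20% were higher. Of the 138 rises 16 stayed called whichever library was left out, and of the 8 rises 1 did. The median log2 change of genes up to 2 kb ran from -0.0037 to 0.0888 in the fits that left out 1 library. The deposited values of 78.5% of intron-bearing genes match a length within 2% of the genomic span, so RPKM values of genes with long introns are low and levels are compared here only within a gene.

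**Figure D5:**
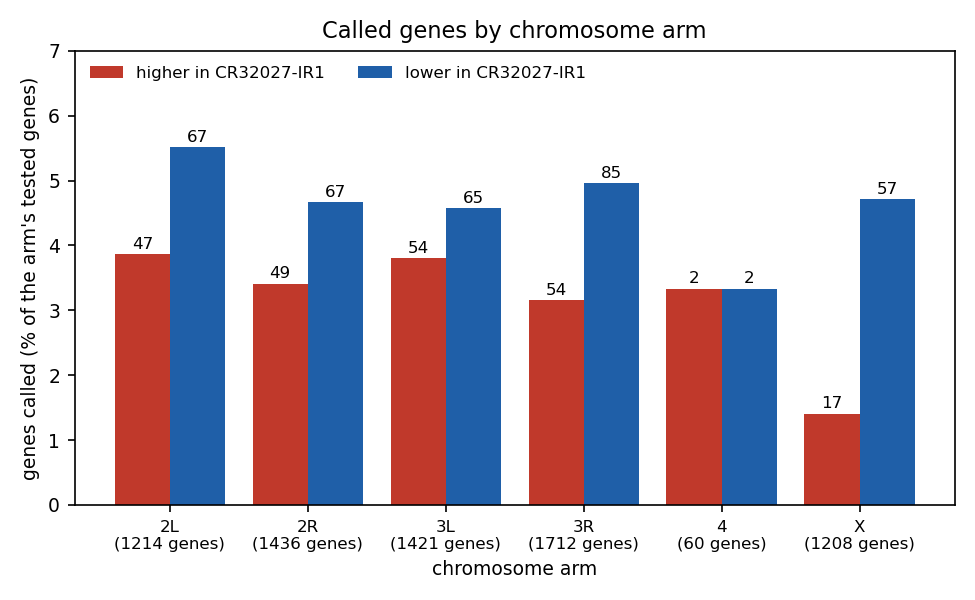
Share of tested genes on each chromosome arm (y axis, %) that were called higher (red) or lower (blue) in the libraries labelled CR32027-IR1, with the number of called genes over each bar. Bars for lower genes are taller than those for higher genes on every arm but the fourth, and the bar for higher genes is shortest on X with 17 genes.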

How the data were processed

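RNA-seq of larval wing pouches was taken from the authors' deposited table of RPKM per gene, with 1 column per library. CASAVA 1.8.2, TopHat2 and build dm3 are named in the submitters' processing notes. The sources used here do not give the counter, the annotation or the strand setting. Genes are listed by FlyBase ID, and symbols, gene types and gene order came from the BDGP6 annotation, which matched 15002 of 15682 IDs. No coordinates were converted between builds. Whole reads could be read off the RPKM values of 7422 of 7427 tested genes (99.9%, within 0.01 reads), which gave the depths. RPKM carries no interval of its own, so precision is given by the spread over 3 libraries per genotype.

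The 6 libraries were fitted with limma 3.58.1 (R 4.3.3, intensity trend) on log2(RPKM + 1) for genes whose mean reached 1 RPKM, with Benjamini-Hochberg adjustment over all 7427 genes and a threshold of 0.05. The fit was tested on simulated data drawn independently for each gene and library, and so without shifts shared by the genes of a library. Values after ± on log2 changes are standard errors of that fit, and intervals are its 95% intervals.

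Named genes are CR32027, Dcr-2 and w, the 15 largest rises and 15 largest falls among called genes whose libraries do not overlap, up to 4 called genes of each class with at least 3 calls, up to 2 of each class with none, and runs of neighbours. Other genes of classes were chosen after their values were seen. Members and class lists were chosen with earlier results of these data known. Other pseudocounts, filters, scalings and weights, all 9 libraries, a replicate block and leaving out each library were tried, and voom on the whole reads was added after the data were seen. Same-numbered libraries did not deviate from their genotype means together (r = 0.0912, -0.234 and -0.172), so the numbers were not taken to pair them.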

Additional observations from a re-analysis of the deposited data

How the results depend on the processing

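No called gene reversed its direction under any setting in which it was tested. Pseudocounts of 0.1 and 0.5, a minimum of 5 RPKM, no filter, scaling to equal medians, quantile normalisation, no intensity trend and voom on whole reads gave 455 to 684 genes called, within 1.5 times of the 609. Array weights, whose estimation did not converge, gave 2592 calls (1501 higher, 1091 lower, 658 in the functional classes) and a log2 change of 0.486 for CR32027 (limma, adjusted p = 0.0132), against 0.286 with equal weights. Fitting all 9 libraries gave 1019 (452 higher, 567 lower, 254 in classes). An adjusted p under 0.01 left 143 (42 higher, 101 lower, 32 in classes). With the replicate number as a block 177 genes were called (59 higher, 118 lower, 37 in classes), of which 171 were among the 609. The numbers share no known source. In deviations from the genotype means, no library labelled CR32027-IR1 correlated best with the OreR library of its own number. Of the OreR libraries, replicate 1 correlated best with its own number (r = 0.0912). The highest r was 0.263, between CR32027-IR1 replicate 2 and OreR replicate 3. Leaving out 1 library at a time gave 151 to 864 calls, 39 to 437 higher, 100 to 427 lower and 31 to 207 in classes, and log2 changes of CR32027 from 0.152 to 0.392. The cause of these shifts was not tested, beside the fewer libraries of those fits. Of the 119 named genes that were called, 116 kept their call with voom, 84 with no filter, 56 with the block and 48 without OreR replicate 2. Depth limits short genes most, such as mir-279 with 18 reads in the libraries labelled CR32027-IR1 and 2 in OreR.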
